A study of Mus musculus with 2 samples.

Results

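Methylated regions at genes for zinc finger proteins were described in livers from a Pemt-/- and a Pemt+/+ mouse, 1 animal each. They were chosen as the regions that the deposited lists pair with a RefSeq transcript, at up to 10 kb, whose gene symbol starts with Zfp and a number, whatever their values. This gave 615 of 97063 regions in Pemt-/- and 883 of 131279 regions in Pemt+/+, at 243 genes in all. Pemt encodes the enzyme that methylates phosphatidylethanolamine to phosphatidylcholine. According to the labels the Pemt-/- mouse was a Pemt knockout, which the paper describes as a systemic deletion, and the Pemt+/+ mouse was wild type. Both were male according to the Methods and were fed high fat-high sucrose (HFHS) chow from week 5 to week 25 of age according to the labels, while the Methods place the livers for this capture at earlier times. Methylated DNA was captured with a kit built on a protein that binds methylated CpG sites, and the captured fragments were sequenced. With 1 library per genotype there is no replicate, no test and no p-value, and every difference between the mice is one between these libraries.

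Zinc finger proteins of this family bind DNA, or in some cases RNA, through short loops that each hold a zinc ion. The largest group carries a KRAB domain and recruits factors that silence retroelements and imprinted loci. Its genes lie in clusters of similar copies, and in most of them a single long last exon encodes the whole row of fingers. A methylated region marks where CpG methylation was captured and does not measure expression.

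Capture depends on methylated CpG sites, so the 250 bases before the start of 4 Zfp genes are shown, from the RefSeq table of assembly GRCm38.p6, with each CpG (the letters CG, which read the same on both strands) in capitals. Zfp652 and Zfp36l3 had a region over a 5′ end and Zfp42 had regions just upstream. Zfp296 had none near its start and is shown for comparison. The stretches are chr11:95748817-95749066 on the plus strand for Zfp652, chrX:53776395-53776644 on the minus strand for Zfp36l3, chr8:43307010-43307259 on the minus strand for Zfp42 and chr7:19577037-19577286 on the plus strand for Zfp296.
Zfp652: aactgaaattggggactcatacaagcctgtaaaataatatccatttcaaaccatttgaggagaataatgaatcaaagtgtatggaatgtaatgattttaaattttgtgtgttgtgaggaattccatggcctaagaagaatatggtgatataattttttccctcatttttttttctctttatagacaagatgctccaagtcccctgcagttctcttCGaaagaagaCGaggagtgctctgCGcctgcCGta
Zfp36l3: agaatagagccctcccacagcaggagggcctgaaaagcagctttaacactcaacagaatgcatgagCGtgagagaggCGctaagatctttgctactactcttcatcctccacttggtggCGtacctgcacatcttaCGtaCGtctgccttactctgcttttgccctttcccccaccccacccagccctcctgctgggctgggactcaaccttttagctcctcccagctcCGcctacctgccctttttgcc
Zfp42: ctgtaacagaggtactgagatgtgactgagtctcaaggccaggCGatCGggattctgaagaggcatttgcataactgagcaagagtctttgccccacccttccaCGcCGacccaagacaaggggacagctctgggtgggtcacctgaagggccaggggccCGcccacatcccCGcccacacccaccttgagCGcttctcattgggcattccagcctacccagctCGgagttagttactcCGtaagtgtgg
Zfp296: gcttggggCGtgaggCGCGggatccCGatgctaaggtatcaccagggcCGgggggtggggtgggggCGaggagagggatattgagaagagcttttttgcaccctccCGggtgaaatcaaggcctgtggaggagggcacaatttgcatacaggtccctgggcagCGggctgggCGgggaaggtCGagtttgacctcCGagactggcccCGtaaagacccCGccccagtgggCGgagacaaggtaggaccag
They hold 4, 6, 9 and 14 CpGs in that order. The region lists use the older build mm9, so a region could not be placed on these letters, and the start in GRCm38.p6 need not be the start of the transcript version in the lists. Of all 32851 promoters in the table, 92.1% hold at least 1 CpG, and the median is 6. Promoters of the listed Zfp genes, 242 promoters of 191 genes that could be matched, had a median of 12 CpGs, and 58.7% of them held 10 or more, against 37.8% of all promoters. Among these, 24 genes had a region over a 5′ end or within 2 kb upstream in either mouse. Their 32 promoters had a median of 7.5 CpGs, and the other 210 had 12. All starts of such a gene are counted, also any without a region near it.

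The Zfp regions held 11497 reads (tags) in Pemt-/- and 21644 in Pemt+/+, which is 0.727% and 0.760% of the tags in all regions. The whole lists hold 1582080 and 2847831 tags. Such sums depend on the length of each list, and how many reads were sequenced is not known. Zfp regions had a median of 14 tags (Pemt-/-) and 17 tags (Pemt+/+), beside 13 and 17 over all regions, and the range was 8 to 106 and 9 to 251. Zfp regions covered 327 kb in Pemt-/- and 460 kb in Pemt+/+. Among them, 39 regions in Pemt-/- and 48 in Pemt+/+ lay near a pair of Zfp genes and count for both genes. Another gene lay within the pairing distance of 16.1% and 15.5% of the Zfp regions. As for the labels, Pemt had 2 regions with 50 tags in Pemt-/- and 4 regions with 87 tags in Pemt+/+, which does not show whether the gene is intact. None of 16 marker genes of hepatocytes, immune cells and endothelial or stellate cells had a region over its 5′ end in either mouse, which gives no check of the cell types in the sample.

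Most Zfp genes had few regions. A region was listed at 225 Zfp genes in Pemt-/- and at 239 in Pemt+/+, with a median of 2 and 3 regions per gene. There were 75 genes with a single region in Pemt-/- and 51 in Pemt+/+, and 21 and 33 genes had more than 5. More regions were listed in Pemt+/+ than in Pemt-/- at 144 genes, fewer at 24 and the same number at 75, or 59.3%, 9.88% and 30.9% of the Zfp genes. Over all 14480 listed genes the shares were 62.0%, 11.3% and 26.8%, and the Pemt+/+ list is the longer one. The same 5 genes led in both mice and together held 102 regions, or 16.6% of the Zfp regions, in Pemt-/- and 152 regions, or 17.2%, in Pemt+/+. Zfp385b had 31 regions with 406 tags in Pemt-/- and 40 regions with 745 tags in Pemt+/+. Zfp536, a repressor of neuronal differentiation, had 21 regions with 392 tags and 34 regions with 817 tags. Zfp423, which takes part in the commitment of fat cell precursors, had 17 regions with 277 tags and 29 regions with 549 tags. Zfp827 had 17 and 26 regions, and Zfp532 had 16 and 23. All of the regions of Zfp385b, Zfp536 and Zfp423 lay inside or over the end of a transcript.

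These are long genes. In GRCm38, Zfp536 spans 456 kb, Zfp385b 407 kb and Zfp423 300.2 kb, while the median Zfp gene with a region spans 16.1 kb. Per 100 kb of gene, Zfp385b held 7.62 regions in Pemt-/- and 9.83 in Pemt+/+, and Zfp536 held 4.61 and 7.46. The 14 Zfp genes over 100 kb together had 5.27 and 8.32 regions per 100 kb, against 4.02 and 5.39 over the 1952 listed genes of that size. At the 147 Zfp genes of up to 20 kb the values were 8.03 and 10.2, against 6.92 and 9.89 over 6873 listed genes. Between these lengths Zfp genes had fewer. The 69 Zfp genes of 20 to 50 kb had 4.68 and 6.11, against 5.86 and 8.13, and the 13 of 50 to 100 kb had 4.16 and 6.77, against 5.48 and 7.33. The share of genes with a region inside or over an end also went both ways. Up to 20 kb it was 64.6% of the Zfp genes in Pemt-/- and 74.1% in Pemt+/+, against 43.5% and 54.8% of all listed genes of that length. From 20 to 50 kb it was 72.5% and 78.3%, against 79.5% and 87.3%, and from 50 to 100 kb 61.5% and 76.9%, against 92.6% and 95.8%. Lengths were not matched within a class, and a longer gene has more room for a region. The lengths are GRCm38 spans, while regions were judged against the transcripts of the mm9 lists, which can be shorter. Zfp516, for example, spans 95.6 kb, and its listed transcript 47.1 kb. How far this accounts for the values of a class was not tested.

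**Figure D1:**
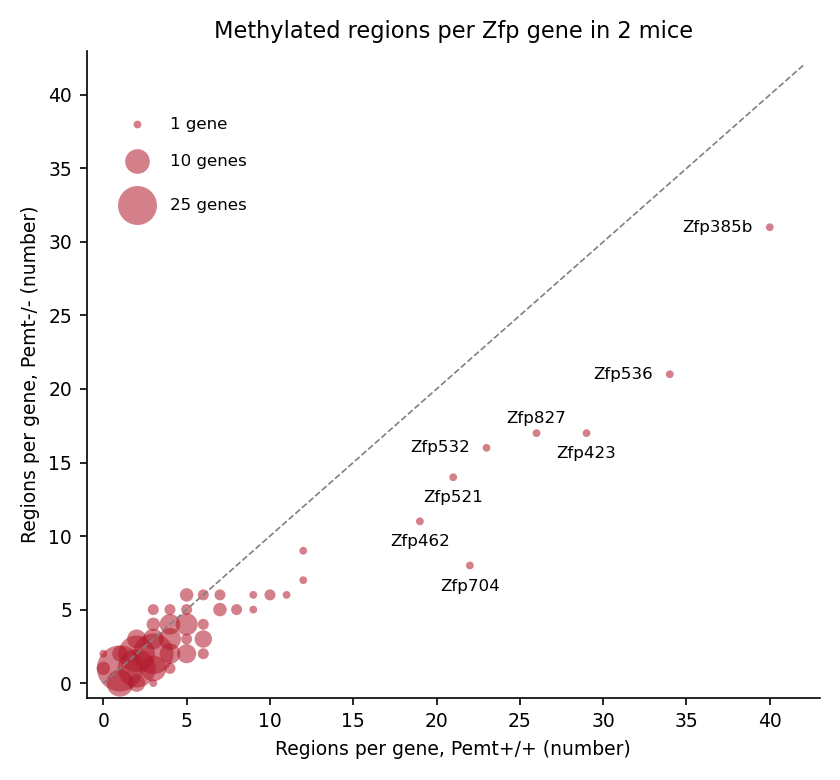
Number of methylated regions at each of 243 Zfp genes in the Pemt+/+ mouse (horizontal axis) and the Pemt-/- mouse (vertical axis), with the area of a circle standing for the number of genes at that point and the dashed line for equal numbers. Most genes lie in the lower left corner, while Zfp385b (40 regions in Pemt+/+ and 31 in Pemt-/-), Zfp536, Zfp423, Zfp827 and Zfp532 lie far out and below the line.

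The Zfp genes listed in 1 mouse only had few tags, with 1 exception. Both mice had a region at 221 genes, 4 genes (1.65%) were listed in Pemt-/- only and 18 (7.41%) in Pemt+/+ only, beside 2.31% and 9.73% of all listed genes. The 4 genes of Pemt-/- were Zfp114, Zfp212, Zfp541 and Zfp595, with 8, 18, 12 and 9 tags in all their regions. Of the 18 genes of Pemt+/+, 17 had at most 29 tags, the highest being Zfp101. The other was Zfp389, with 3 regions and 100 tags. Its region of 66 tags, 9950 bp downstream of the transcript, overlapped a Pemt-/- region of 32 tags that the lists do not pair with Zfp389. It was the 1 gene of these 22 with a region that overlapped one of the other mouse. These genes were named after their values were seen.

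Zfp regions lay outside their transcript more often than regions over all genes, in shares that are not matched for gene length. In Pemt-/-, 424 of the 615 regions, or 68.9% (95% Wilson confidence interval 65.2 to 72.5%), lay inside a transcript or over one of its ends, and in Pemt+/+ 601 of 883, or 68.1% (64.9 to 71.1%). Over the regions of all genes the shares were 81.8% and 81.5%. Zfp regions were judged against Zfp transcripts only, and regions of all genes against any transcript. A Zfp region inside a neighbouring gene of another kind can thus count as outside in the first share and inside in the second. Olfactory and vomeronasal receptor genes, another large family of clustered copies, had 26.7% and 27.5%. Upstream of the transcript lay 15.3% and 16.1% of the Zfp regions, against 9.93% and 10.1% for all genes. Downstream lay 15.8% and 15.9%, against 8.26% and 8.35%. The intervals of the Zfp regions do not reach the values of all genes for these relations, but neighbouring regions are not independent and the intervals cover counting error only. The median upstream region was 5069 bp from the transcript in Pemt-/- and 5228.5 bp in Pemt+/+, beside 4971.5 and 5013 bp for all genes. With only the regions that no other kind of gene shares, for which both rules give the same relation, 73.8% of 516 and 72.7% of 746 lay inside or over an end. The median Zfp gene with a region spans 16.1 kb, against 21.7 kb over all listed genes, while regions were paired at up to 10 kb for any gene length. How far gene length accounts for these shares was not tested.

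**Figure D2:**
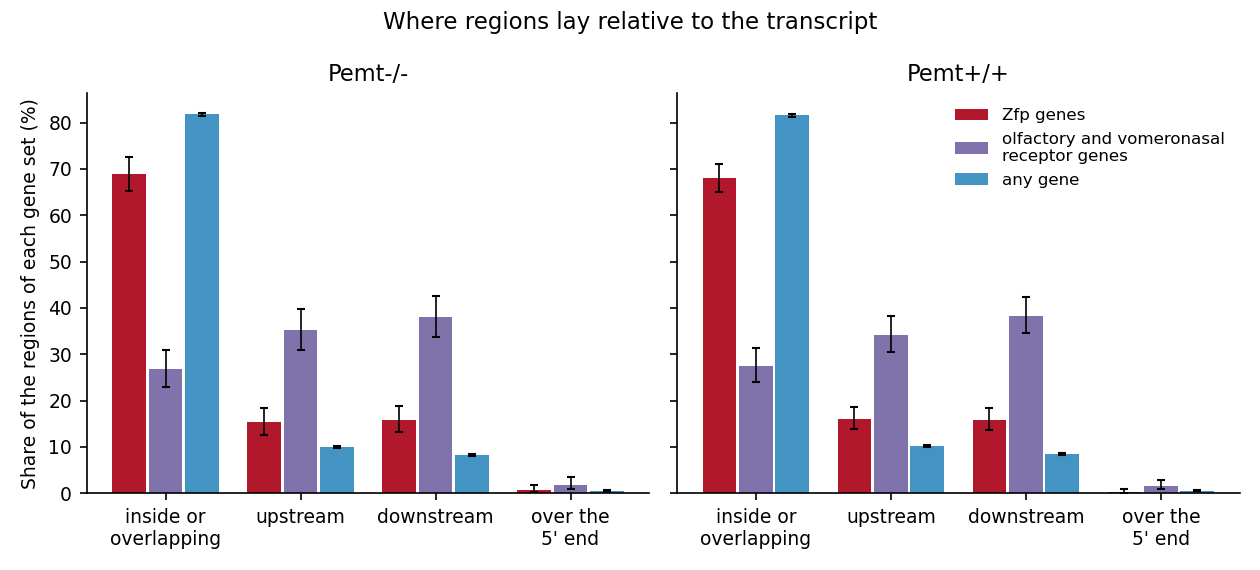
Share of regions (percent, vertical axis) inside or overlapping a transcript, upstream, downstream or over the 5′ end, for Zfp genes, receptor genes and any gene, in Pemt-/- (left) and Pemt+/+ (right), with Wilson 95% intervals as bars. A region paired with several transcripts counts once, in its closest relation to a transcript of the gene set shown. Zfp genes (68.9% and 68.1% inside or overlapping) lie between receptor genes and genes in general.

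The 5′ end of a Zfp transcript was covered in few places. In Pemt-/- 4 of 615 regions, or 0.65% (0.253 to 1.66%), lay over a 5′ end, and in Pemt+/+ 3 of 883, or 0.340% (0.116 to 0.994%). The shares for all genes were 0.522% and 0.567%, inside both intervals. At Zfp521, a regulator of blood, neural and fat cell development, a region of 25 tags in Pemt-/- (chromosome 18, 14002530 to 14003406 in mm9) overlapped one of 69 tags in Pemt+/+ that was 1752 bp long. At Zfp652 (chromosome 11, 95610188 to 95610519) the regions held 12 and 14 tags. Zfp385b (chromosome 2, 77541110 to 77541544) had regions of 11 and 18 tags over the start of 1 of its transcripts. The X-linked Zfp36l3, of the family that marks mRNA for decay, had 9 tags over its 5′ end in Pemt-/-. The overlapping region in Pemt+/+ held 26 tags and was listed as inside the transcript, so this region too was present in both mice. Zfp42, a marker of pluripotent cells, had a region 351 bp upstream of its start with 13 tags in Pemt-/- and its counterpart at 344 bp with 24 tags in Pemt+/+. Inside the gene 2 more regions held 52 and 45 tags in Pemt-/- and 66 and 67 in Pemt+/+.

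Within transcripts, the fourth of 5 equal parts held the most Zfp regions in both mice. The place of a region along the transcript could be worked out from the listed distances for 91 Pemt-/- regions at 37 genes and 120 Pemt+/+ regions at 43 genes. In the part nearest to the 5′ end lay 11 of 91 regions (12.1%, 6.89 to 20.4%) and 12 of 120 (5.81 to 16.7%), beside 16.3% and 15.9% over all genes. The fourth part held 34.1% (25.2 to 44.3%) in Pemt-/- and 28.3% (21.0 to 37.0%) in Pemt+/+, beside 21.6% in both. The last 10% of the transcript held 13.2% and 14.2%, beside 13.0% and 12.7%. In Pemt+/+ the interval of the fourth part comes down to 21.0%, so that difference is within counting error there. The Zfp transcripts measured here were short, 18.8 and 19.9 kb for the median region, against 96.6 and 94.2 kb for all genes. A transcript could enter only if regions were listed on both sides of it, which leaves out most Zfp genes. Some genes, such as Zfp532, Zfp64 and Zfp644, gave several of the placed regions, and regions shared by the mice count in each. The intervals treat all of them as independent. The fourth part was named because it was the largest of the 5.

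Long regions were more frequent at Zfp genes than elsewhere. Of the Zfp regions, 14 in Pemt-/- and 19 in Pemt+/+ were 1500 bp or longer, or 2.28% (1.36 to 3.78%) and 2.15% (1.38 to 3.34%), against 0.155% and 0.216% of all regions. Chromosome 7 held 8 of these regions in each mouse, and without it the Pemt-/- share was 1.30% (0.597 to 2.80%), against 0.149% of all regions. Zfp genes held 9.33% of the 150 regions of that length in Pemt-/- and 6.71% of the 283 in Pemt+/+. At a limit of 1000 bp, 40 regions or 6.50% and 57 regions or 6.46% of the Zfp regions passed, against 1.42% and 1.73% of all regions and 1.11% and 1.21% of regions at receptor genes. These limits were set after the lengths were seen, and the intervals treat regions as independent. Of the regions of 1000 bp or longer, 39 of 40 in Pemt-/- and 53 of 57 in Pemt+/+ overlapped a region of the other mouse (97.5% and 93.0%), beside 97.6% and 91.2% of all regions of that length. Inside a transcript lay 35 and 47 of them. They held 19.2% and 21.6% of the tags in Zfp regions. Their median fold enrichment over the background was 10.97 and 12.02, lower than the 15.9 and 14.9 of all Zfp regions.

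The regions with most tags were of this kind. In Pemt-/- the region at Zfp112 and Zfp180 (chromosome 7, 24889234 to 24891460) held 106 tags over 2227 bp, and its counterpart 133 tags. Zfp30 (chromosome 7, 30577002 to 30579297) held 105 tags in Pemt-/- and 182 in Pemt+/+. Zfp619 (chromosome 7, 46790967 to 46793385) held 105 and 205 tags. In Pemt+/+ the leading region was at Zfp462 (chromosome 4, 55021518 to 55024157), with 251 tags over 2640 bp against 69 tags in Pemt-/-. All of these lay inside a transcript. The 3′ end of the transcript was known for 15 of the long regions in Pemt-/- and 25 in Pemt+/+. The median distance to it from the nearer edge of the region was 1172 and 918 bp, and 8 and 16 of them lay within 2 kb. No value for shorter regions stands beside these, so they do not set long regions apart. At Zfp30 the distance was 262 bp in Pemt-/- and 396 bp in Pemt+/+, in a transcript of 9.75 kb, and at Zfp27 it was 741 and 668 bp in a transcript of 12.8 kb. From the middle of the Zfp30 region it was 1409.5 bp in Pemt-/- and 1427 bp in Pemt+/+.

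**Figure D3:**
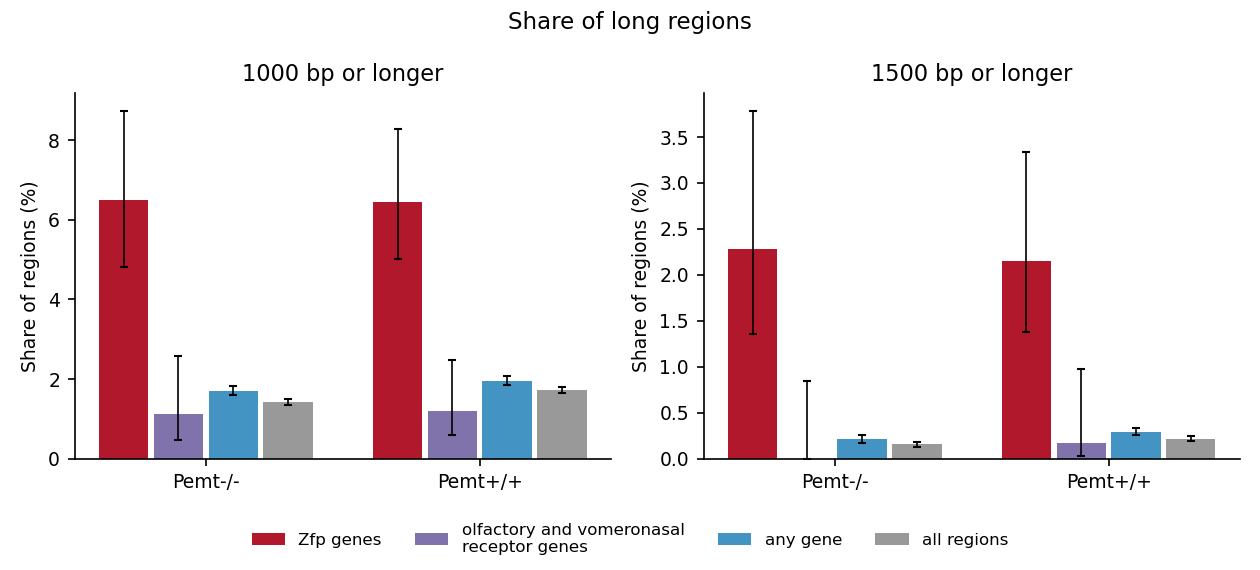
Share of regions (percent, vertical axes, with different scales) that were at least 1000 bp (left) or 1500 bp (right) long in Pemt-/- and Pemt+/+, for Zfp genes, receptor genes, regions at any gene and all regions, with Wilson 95% intervals as bars. The Zfp bars stand at 6.50% and 6.46% on the left and at 2.28% and 2.15% on the right, above the bars of the other sets.

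Fold enrichment, which compares a region with its background, singled out other and shorter regions. The highest values were 48.9 in Pemt-/- and 49.2 in Pemt+/+, both at the region downstream of Zfp456 (chromosome 13, 67461883 to 67462394), with 39 and 54 tags. In Pemt-/- Zfp608 followed with 46.0 and Zfp606 with 43.9, and in Pemt+/+ Zfp498 with 46.7 and Zfp414 with 46.0. Their regions were 319 to 666 bp long and all of them had a counterpart in the other mouse. The mean fold enrichment over the Zfp regions was 17.1 in both mice.

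Chromosome 7 held the largest part of the Zfp regions. With 67 genes it had 153 regions, or 24.9% of the Zfp regions, in Pemt-/- and 201, or 22.8%, in Pemt+/+, against 4.98% and 5.13% of all regions. Chromosome 2 followed with 11.5% and 12.2%, of which Zfp385b alone held 31 and 40 regions. Of the 405 Zfp genes in RefSeq, 175 lie in 22 clusters of at least 4 Zfp genes whose starts are at most 250 kb apart, and 102 of the listed genes belong to them. The cluster on chromosome 7 with Zfp30, Zfp27, Zfp568 and Zfp146 has 15 genes, of which 12 had a region, with 41 regions and 970 tags in Pemt-/- and 48 regions and 1589 tags in Pemt+/+. On chromosome 13 the cluster around Zfp456 has 23 genes, of which 11 had a region, with 12 and 17 regions. The cluster on chromosome 17 with Zfp871 and Zfp414 has 13 genes, of which 11 had a region, with 18 and 26 regions. A second cluster on chromosome 7, with Zfp112 and Zfp180, equals these last ones with 11 of its 12 genes and had 16 and 23 regions. Another cluster on chromosome 17, with Zfp51 and Zfp677, has 18 genes, of which 5 had a region, with 5 and 10 regions. Cluster genes were counted in GRCm38.p6, while regions were paired with the transcripts used for the mm9 lists. A gene without such a transcript could not have a region. These counts therefore do not show that the other genes of a cluster lacked methylated regions. Genes in clusters had 56.7% (49.4 to 63.8%) of their regions inside or over an end in Pemt-/- and 52.3% (46.0 to 58.5%) in Pemt+/+, and the other Zfp genes had 73.9% (69.6 to 77.8%) and 74.1% (70.5 to 77.3%). These shares are not matched for gene length, and all 14 Zfp genes over 100 kb lie outside the clusters. Of the other genes' regions inside or over an end, those 14 held 154 of 323 in Pemt-/- and 243 of 474 in Pemt+/+. How far gene length accounts for the difference between clustered and other genes was not tested. No region lay over the 5′ end of a clustered gene, among 178 regions in Pemt-/- and 243 in Pemt+/+. For all genes the shares over a 5′ end were 0.522% and 0.567%, so few would be met among so many, and the absence does not set clusters apart. Copies in a cluster can share sequence to which reads map in more than one place, and how such reads were treated is not given in the sources used here.

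Zfp regions were shared between the mice about as often as other regions. Of the 615 regions in Pemt-/-, 87 did not overlap a Pemt+/+ region by at least 1 bp, which is 14.1% (11.6 to 17.1%), beside 16.7% of all regions. In Pemt+/+ 354 of the 883 had no counterpart, or 40.1% (36.9 to 43.4%), beside 38.4%. Both background values lie inside these intervals. Unshared regions held few tags, with a median of 10 in Pemt-/- and 13 in Pemt+/+, against 15 and 23 in shared ones. In regions of 8 to 11 tags 28.7% were unshared in Pemt-/- and 74.7% in Pemt+/+. With 24 tags or more, 1 of 138 regions in Pemt-/- (0.725%) and 21 of 280 in Pemt+/+ (7.50%) were unshared, beside 0.877% and 8.54% of all regions with as many tags. When the Pemt+/+ list was limited to as many of its highest-scoring regions as the Pemt-/- list holds, the shares became 27.2% and 28.2%, beside 27.8% and 28.1% over all regions. Receptor genes had 14.3% and 33.5% unshared regions.

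**Figure D4:**
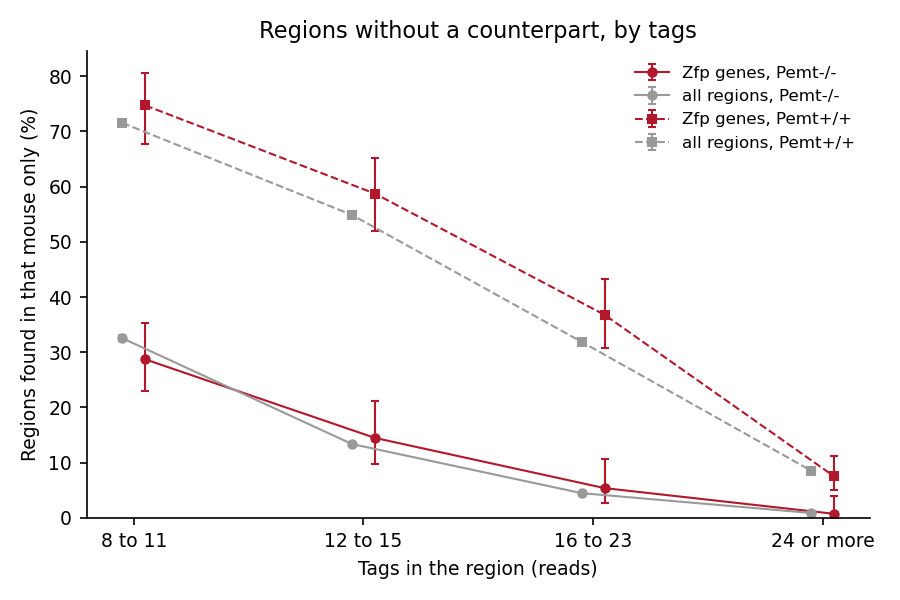
Share of regions without an overlapping region in the other mouse (percent, vertical axis) by the number of tags in the region (horizontal axis), for Zfp genes and all regions in Pemt-/- (solid lines, circles) and Pemt+/+ (dashed lines, squares), with Wilson 95% intervals as bars. The share falls with tags in both mice, from 28.7% to 0.725% and from 74.7% to 7.50% at Zfp genes, and the Zfp points lie close to those of all regions.

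The unshared regions with the highest scores were inside genes with one exception. In Pemt-/- they were at Zfp395 (chromosome 14, 65996154 to 65996453, 12 tags), Zfp143 (chromosome 7, 117218378 to 117218707, 13 tags), which encodes a factor that binds many promoters, and Zfp385b (chromosome 2, 77614519 to 77614756, 10 tags). In Pemt+/+ they were 2595 bp downstream of Zfp474 (chromosome 18, 52802079 to 52802403, 29 tags), in Zfp423 (chromosome 8, 90390849 to 90391133, 20 tags) and in Zfp532 (chromosome 18, 65824141 to 65824417, 18 tags). These were chosen for being unshared, so that their absence from the other list is a description. No value for the other mouse is given where a region was not listed, since reads below the calling threshold are not in the lists.

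Where regions overlapped one to one, the tags of Zfp regions stood in a ratio close to that of all regions. There were 501 such pairs at 216 Zfp genes. Pemt+/+ had more tags in 431 pairs, Pemt-/- in 50 (9.98%, beside 10.4% of all pairs), and 20 were equal. Pemt-/- tags divided by Pemt+/+ tags had a median of 0.680 (order-statistic 95% interval 0.652 to 0.703), beside 0.682 over all 79393 pairs, and the middle 50% ran from 0.538 to 0.852, beside 0.545 to 0.850. The common value below 1 is not scaled by sequenced totals and does not by itself mean less methylation. Of 353 pairs with at least 30 tags over both mice, 6 stood at 2 times the median ratio of all pairs or more (a ratio of 1.36), where 1.43% of all such pairs did. A further 15 stood at 1/2 of it or less (0.341), where 2.88% did. These counts are small, and no test was made of them.

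The lowest ratios were at Zfp365, a gene active in the nervous system, with 12 tags in Pemt-/- and 58 in Pemt+/+ (0.207), at Zfp366, known from dendritic cells, with 9 and 36 (0.250), and at Zfp41, with 15 and 57 (0.263). All 3 regions lay inside the gene. At Zfp365 the Pemt-/- region was 263 bp long and its counterpart 1027 bp, so the windows in which tags were counted differed as well. Per kb of region the ratios were 0.808 at Zfp365, 0.720 at Zfp366 and 0.325 at Zfp41, beside a median of 0.715 over all pairs, so that only the ratio of Zfp41 stayed low of these 3. The long region of Zfp462 had a ratio of 0.275, and 0.721 per kb. The highest ratios were inside Zfp579, with 23 and 10 tags (2.30), downstream of Zfp532, with 30 and 19 (1.58), and downstream of Zfp160, with 26 and 17 (1.53). Here too the longer region had the more tags, and per kb the ratios were 1.06, 0.723 and 1.06. These extremes were picked by their ratio and are given as a description.

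**Figure D5:**
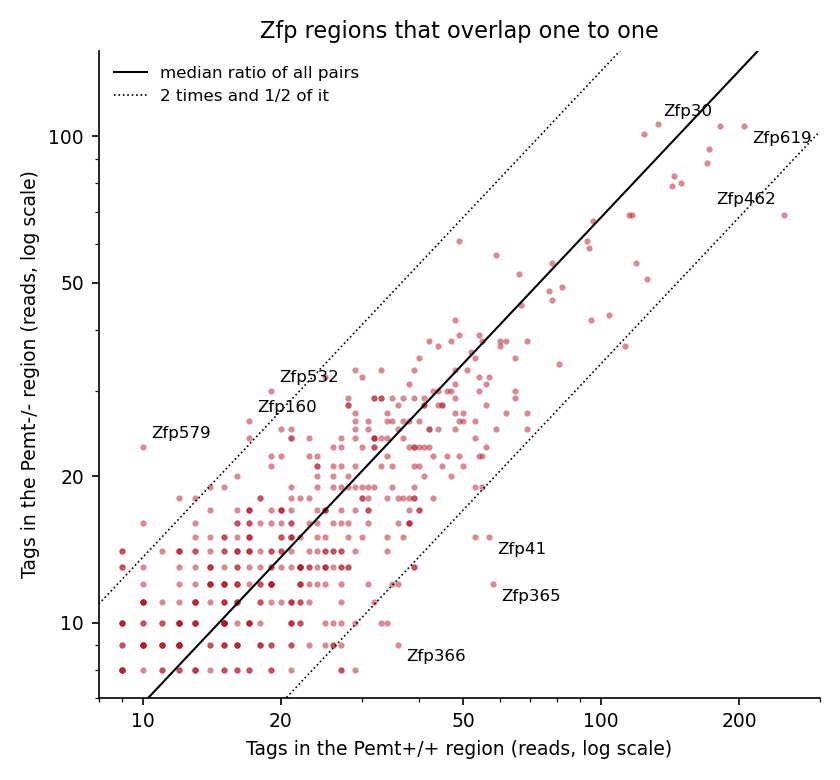
Tags (reads, log scales) in the 501 pairs of Zfp regions that overlapped one to one, in Pemt+/+ (horizontal axis) and Pemt-/- (vertical axis), 1 point per pair. The solid line is the median ratio of all 79393 pairs (0.682) and the dotted lines are 2 times and 1/2 of it. Most points lie between the dotted lines, with Zfp579 above and Zfp365, Zfp366 and Zfp41 below them.

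Summed per gene, the share of tags that came from Pemt-/- had a median of 35.9% (34.6 to 37.1%) over the 218 Zfp genes with at least 20 tags in all and a region in both mice, beside 36.1% over 12608 genes. It ran from 14.04 to 69.7%, and 13 genes, or 5.96%, were above 50%, beside 6.40% of all genes. Of the 218 genes, 54 lay above the upper quartile of all genes (41.3%) and 55 below the lower quartile (30.8%).

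Of 24 Zfp genes of known role that were looked up by name, 17 had a region in either mouse, or 70.8% (50.8 to 85.1%), beside 241 of the 405 Zfp genes in RefSeq, or 59.5%. The 405 genes are those of GRCm38.p6, and any without a transcript in the older lists could not have a region. These shares are thus not of like sets. Zfp57, which keeps the methylation of imprinted loci, had 1 region of 9 tags in Pemt-/-, 1490 bp upstream. In Pemt+/+ this region held 18 tags, and a second one, inside the gene, held 23 and was not listed in Pemt-/-. Both lie near another gene as well. Its share from Pemt-/- was 18% (9.77 to 30.8%). Zfp568, a KRAB protein that silences a fetal growth gene, had 6 regions in each mouse with 100 and 110 tags, a share of 47.6% (41.0 to 54.4%). The retroelement repressor Zfp809 and Zfp445, which acts beside Zfp57 at imprints, had none.

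All 4 genes looked up for fat and mesenchymal cells had regions, and Zfp423 and Zfp521 among them are longer than 100 kb, a length at which 97.8% and 99.3% of listed genes had a region inside or over an end. Besides Zfp423 and Zfp521 (14 regions with 213 tags, 21 regions with 490 tags), Zfp516, which promotes the brown fat programme, had 6 and 11 regions with 85 and 245 tags, a share of 25.8% (21.3 to 30.7%). Zfp467 had 1 region in each mouse with 29 and 32 tags. All 4 nervous system genes were listed too, of which Zfp536 and Zfp804a are also that long. Zfp365 had 6 regions in each mouse with 118 and 255 tags, Zfp804a had 2 and 5 regions, and Zfp238, a repressor in developing neurons, had 2 in each with 31 and 28 tags. Of the mRNA decay genes, Zfp36l2 had 1 region in Pemt-/- and 3 in Pemt+/+, with 11 and 46 tags, while Zfp36 and Zfp36l1 had none. Zfp703 was listed with 24 and 85 tags, and Zfp217 and Zfp750, the other epithelial genes, were not. The promoter factors Zfp143 and Zfp148 had 21 and 74 tags and 27 and 44 tags. The pluripotency genes Zfp42 and Zfp296 were listed and Zfp281 was not. At Zfp296 the share was 61.5% (45.9 to 75.1%), from regions of 11 and 13 tags in Pemt-/- and 1 of 15 tags in Pemt+/+, all downstream and near another gene as well. Zfp598, which senses stalled ribosomes, had 2 regions in each mouse with 22 and 23 tags.

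The authors also deposited a shorter list for each mouse, whose purpose is not stated in the sources used here. It held 10 of the 615 Zfp regions in Pemt-/-, or 1.63%, beside 2.13% of all regions, and 39 of the 883 in Pemt+/+, or 4.42%, beside 4.59%. The false discovery rate (FDR) in these lists was 100% for all 10 regions of Pemt-/- and 23.9 to 35.8% for the 39 of Pemt+/+. In the longer lists it was 0% throughout. Against the other mouse's longer list, none of the 10 had a counterpart and 12 of the 39 had one (30.8%, 18.6 to 46.4%), beside 7.69% and 18.6% of all regions of the shorter lists. The highest scores in Pemt-/- were at Zfp148 (chromosome 16, 33412182 to 33412478, 11 tags), Zfp366 (9 tags) and, at equal scores, Zfp541, Zfp90 and Zfp609 (12 tags each). In Pemt+/+ they were inside Zfp423 (chromosome 8, 90362762 to 90362991, 12 tags), inside Zfp354b (chromosome 11, 50735899 to 50736166, 14 tags) and inside Zfp318 (chromosome 17, 46541206 to 46541652, 17 tags). The region inside Zfp354b is also paired with Zfp2 and lies upstream of that gene. The Zfp462 region of 251 tags and the Zfp619 region of 205 tags were in the Pemt+/+ list as well.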

How the data were processed

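Liver DNA of 1 Pemt-/- and 1 Pemt+/+ mouse fed HFHS chow was enriched for methylated DNA with the EpiXplore kit and sequenced on a Genome Analyzer IIx. The sample records also mention bisulphite conversion, which the Methods do not. The submitters' processing notes name CASAVA 1.8.2, Bowtie and the build mm9. The region names are those of MACS, whose version, settings and control, like the handling of duplicate reads, are not given in the sources used here, and these change tag numbers. Tags deposited by the authors are raw counts of reads per region. The fold enrichment, as deposited, is a ratio of reads over background. For p-values the authors gave −log10 values multiplied by 10 (the score), none below 50. The deposited FDR is a percent.

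Each region was used once. Overlaps of at least 1 bp were found with bedtools 2.31.1. Transcript ends in mm9 were worked out from the listed positions and distances. The RefSeq tables of GRCm38.p6 served for names, gene lengths, clusters and promoter sequences only. Shares have Wilson 95% intervals and medians order-statistic intervals, for counting error only, since reads are not independent molecules. Python 3.11.15, pandas 2.3.3, numpy 2.4.6, scipy 1.17.1 and matplotlib 3.10.9 were used, and the overlap and transcript-end steps were tested on simulated data. Totals of sequenced reads were not known, and tags were not scaled.

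Named genes were 24 Zfp genes of known role, the 5 genes with most regions, and per mouse the 3 regions with most tags, the 3 highest-scoring unshared regions and the 3 of each shorter list, the regions over a 5′ end, the 3 highest and lowest ratios of pairs with at least 30 tags, and the 3 clusters with most genes that had a region, with ties. The members and lists were chosen with earlier results of these data known. Regions with the highest fold enrichment, long regions, gene length classes, tag classes and the promoter comparison were added after seeing the data. A description of zinc finger repeats in proteins was planned and is not given, since no protein table was used here. The 7 alternatives were a stricter score (upper 50% of a list), sharing only where the overlap was 50% of each region, lists of equal length, autosomes only, symbols of Zfp and a number only, regions at Zfp genes only, and leaving out regions beside a transcript.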

Additional observations from a re-analysis of the deposited data

How the results depend on the processing

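Under the alternatives, 97 of 121 recomputed values stayed within their interval or within 1.5 times the count, and 24 moved. Some of the 97 could not move. Limiting the Pemt+/+ list leaves the Pemt-/- regions, genes and tags as they were. The overlap rule does not enter the share per gene or the counts of the shorter lists. The tally is therefore no measure of how stable the results are. A stricter score, the upper 50%, left 305 regions in Pemt-/- and 415 in Pemt+/+, with medians of 21 and 27 tags, and 4 and 25 regions of the shorter lists. The share of placed Pemt+/+ regions in the last 10% of the transcript became 23.1%, on 26 regions. When the overlap had to be 50% of each region, 21.3% and 45.1% were unshared, beside 21.6% and 42.03% of all regions. With lists of equal length the unshared shares were 27.2% and 28.2%, the Pemt+/+ median was 21 tags, the paired ratio 0.636 and the share per gene 38.8%. With regions at Zfp genes only, 73.8% and 72.7% lay inside or over an end. With regions inside or overlapping only, the shorter Pemt-/- list held 5 and the share per gene was 37.5%. For regions of 1500 bp or longer, alternatives chosen after seeing the data gave 6.50% and 6.46% at 1000 bp, 4.59% and 4.34% in the upper 50% by score, and 1.30% in Pemt-/- without chromosome 7, where 6 of 462 regions were that long. The paired ratio per kb of region was 0.728, also chosen after seeing the data. Autosomes only and the narrower rule for symbols moved no value past these limits.

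No paired analysis was possible because the labels give a single library, and no shared replicate number, for a genotype. Leaving out a replicate was not done for the same reason. Regions near the lowest count, 8 in Pemt-/- and 9 in Pemt+/+, were often unshared, and a missing region says only that it did not pass the threshold.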
